A study of Mus musculus with 4 samples.

Results

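The constant region genes of the immunoglobulins were followed in whole uteri of pregnant mice. The set was 10 genes, taken by symbol from the 54152 symbols of the deposited table. They were 6 heavy chain genes (Igha, Ighm, Ighg1, Ighg2b, Ighg2c and Ighg3) and 4 light chain genes (Igkc, Iglc1, Iglc2 and Iglc3). They were chosen by their counts in these same libraries, dd against ff, and by the isotype shares of each library, so those values are a description below and carry no test. All 10 passed the filter on low counts, and a gene that passes such a filter through the group in which it is high has to differ between groups.

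The mice were C57, at pregnancy day 4, and RNA sequencing gave 2 P38α dd libraries and 2 P38α ff libraries. The series title calls the genotypes P38α knockout and wild type, and the labels name no agent or other allele. The labels name neither the Cre line nor the deleted part of the gene, and do not say whether a library held 1 animal or several. Whether the 2 libraries of a genotype came from separate animals is also not given, so every p-value measures only the spread between these libraries. Mapk14, the gene of p38α, had 2481 and 3429 counts in the dd libraries and 3074 and 2710 in the ff libraries, which was not lower in dd. The labels could not be checked by this gene, so dd and ff below mean the libraries labelled so. Total counts were 24619850 and 30868922 in the dd libraries and 32451670 and 30202955 in the ff libraries.

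An antibody is built of heavy and light chains, and the constant region of the heavy chain sets its class. A B cell first uses Ighm and can switch to a gene further along the chromosome, for IgG, IgE or IgA, by deleting the DNA between. Plasma cells, the B cell descendants that secrete antibody, carry very large amounts of constant region RNA, so these transcripts can be abundant in a tissue with few such cells. At mucosal surfaces, the genital tract among them, IgA is joined into dimers by the J chain (Jchain) and carried through epithelium by the polymeric immunoglobulin receptor (Pigr). In RNA of whole tissue, more cells of a type and more RNA per cell cannot be told apart.

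All the heavy chain genes lie on the minus strand of chromosome 12 (mm10), from Ighm at 113418558 to 113422730 through Ighg3, Ighg1, Ighg2b and Ighg2c to Igha at 113254830 to 113260236. Igkc lies on chromosome 6 (70726435 to 70726966), and the lambda genes on chromosome 16. Nothing at hand says how reads of near-identical genes were assigned, so 2 pairs of similar genes are shown to let the reader judge how well they can be told apart. The first 300 bases of the coding parts of Iglc2 (chr16:19198553-19198852, minus strand) and Iglc3 (chr16:19065382-19065681, minus strand) follow 5′ to 3′ from GENCODE transcripts (mm10), with the 11 bases at which the coding parts differ in capitals.
Iglc2: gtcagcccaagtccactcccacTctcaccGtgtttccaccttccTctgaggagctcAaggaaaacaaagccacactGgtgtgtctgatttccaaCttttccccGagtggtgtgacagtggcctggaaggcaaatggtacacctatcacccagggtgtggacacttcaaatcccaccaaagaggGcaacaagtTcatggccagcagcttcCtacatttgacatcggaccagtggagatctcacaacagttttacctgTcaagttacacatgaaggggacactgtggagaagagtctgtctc
Iglc3: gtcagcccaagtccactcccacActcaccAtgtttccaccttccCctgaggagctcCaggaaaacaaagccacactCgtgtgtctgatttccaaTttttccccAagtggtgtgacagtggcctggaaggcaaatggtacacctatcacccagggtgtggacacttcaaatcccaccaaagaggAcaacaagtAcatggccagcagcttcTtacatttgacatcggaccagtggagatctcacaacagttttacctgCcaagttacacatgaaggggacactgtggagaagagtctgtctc

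Iglc2 and Iglc3 were identical at 96.5% of all 317 coding bases, while Iglc1 was identical to Iglc2 at 73.5% of aligned positions. Of all 50-base windows, 10.5% in Iglc2 and 22.3% in Iglc3 also occurred in a transcript of another gene, Iglc3 sharing 43 windows with Iglc2 and 47 with 2010309G21Rik, which overlaps Iglc3 and Iglc1 on the opposite strand. 2010309G21Rik itself had 0 and 2 counts in the dd libraries and 0 in each ff library. Gm30211, which overlaps Igkc on the same strand, had 19 and 41 counts in the dd libraries and 1 and 5 in the ff libraries. All windows were taken from the shortest annotated transcript of each of the 10 genes, and longer transcripts of these genes were not scanned. No 100-base window of the shortest transcripts occurred in another gene. Read length and strand setting are not known here, so values of Iglc1, Iglc2 and Iglc3 are uncertain to that extent.

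The IgG genes differ most in the short exon of the hinge, the flexible link between the arms and the stem of the antibody. Their hinge exons are shown because the contrast between genotypes was widest in this class. Capitals in Ighg2b and Ighg2c mark bases that differ from, or have no partner in, the other of that pair. The exons lie on chromosome 12, minus strand (mm10), at chr12:113329844-113329882 for Ighg1, chr12:113307261-113307326 for Ighg2b, chr12:113288263-113288325 for Ighg2c and chr12:113360529-113360576 for Ighg3.
Ighg1: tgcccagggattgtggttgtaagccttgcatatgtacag
Ighg2b: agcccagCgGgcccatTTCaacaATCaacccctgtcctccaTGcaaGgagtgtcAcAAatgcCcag
Ighg2c: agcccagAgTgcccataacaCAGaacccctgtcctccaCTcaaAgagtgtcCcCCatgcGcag
Ighg3: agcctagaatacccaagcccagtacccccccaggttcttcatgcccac

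The hinge exons of Ighg2b and Ighg2c matched at 77.3% of aligned positions, and the first 3 exons together at 89.8%. Of the 50-base windows of the shortest transcripts, 5.26% in Ighg2b and 5.27% in Ighg2c were shared between these genes. None in the shortest transcript of Ighg1, Ighg3, Ighm, Igha or Igkc occurred in another gene.

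Together the 10 genes took 0.329% and 0.786% of all counts in the dd libraries, against 0.0398% and 0.0599% in the ff libraries. Their summed level was 3429 and 8011 CPM (counts scaled to library size with TMM factors) in the dd libraries and 388.0 and 580.4 CPM in the ff libraries. The mean was 5720 ± 3240 CPM in dd and 484.2 ± 136.0 CPM in ff (SD, n = 2 each), a ratio of 11.8. Both dd libraries lay above both ff libraries, but they differed from each other by 2.34-fold, so that dd replicate 1 alone stood 7.08-fold and dd replicate 2 alone 16.5-fold above the ff mean. The ff libraries lay closer together. In 9 of the 10 genes both dd libraries were above both ff libraries, and in Ighm both were below. Over the 18530 genes tested, 31.6% had both dd libraries above both ff libraries and 31.3% had both below, so that such a split by itself is common in these data. By edgeR's quasi-likelihood test 8.39% of these genes were called in either direction.

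**Figure D1:**
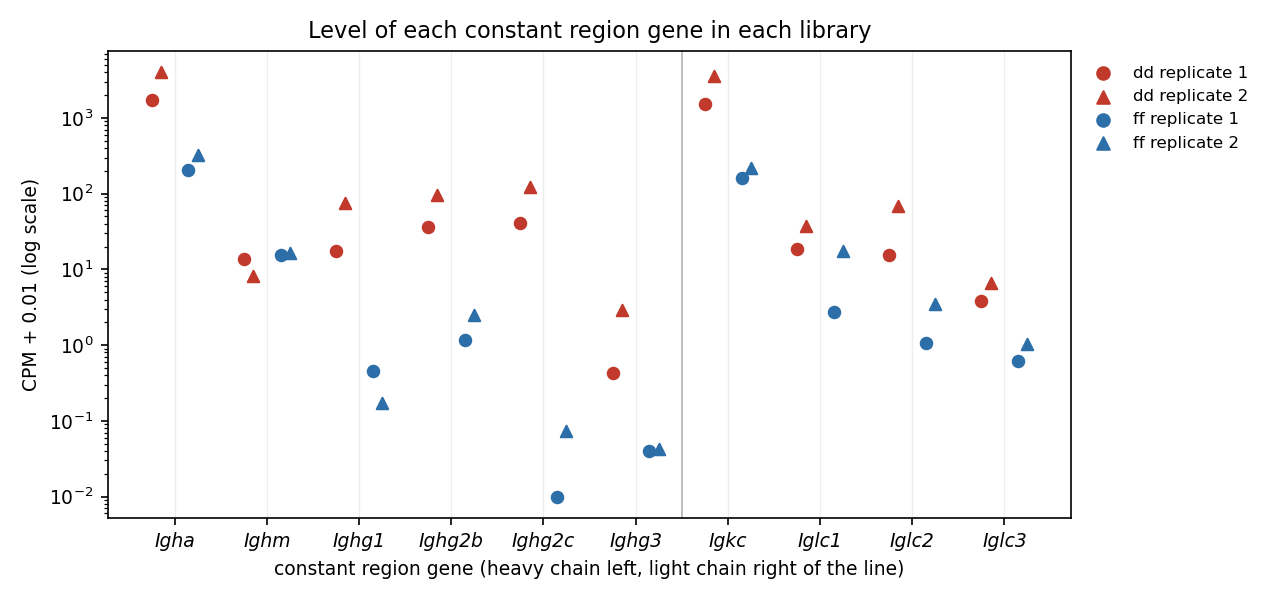
CPM plus 0.01 (log axis) of the 10 constant region genes in each library, with dd in red left of ff in blue, circles for replicate 1 and triangles for replicate 2. Levels can be read between libraries for 1 gene, not between genes, since CPM is not per length; dd points lie above ff points for every gene but Ighm.

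Igha, the heavy chain of IgA, held most of the heavy chain counts in every library. It had 41243 and 122372 counts in the dd libraries and 6847 and 10052 in the ff libraries, or 1746 and 4040 CPM against 205.7 and 322.7 CPM. Among all genes ordered by counts, Igha ranked 29 and 8 in the dd libraries and 704 and 363 in the ff libraries. By the authors' FPKM, which is per length, it ranked 60 and 16 in dd and 498 and 265 in ff. On the log2 scale of the edgeR fit dd exceeded ff by 3.45, a 10.9-fold difference. It was 6.61-fold with dd replicate 1 alone and 15.3-fold with dd replicate 2 alone. The log2 value ran between 2.73 and 3.94 over the alternatives tried, FPKM and single left-out libraries among them.

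Ighm, the heavy chain of IgM and the first gene of the locus, had the opposite order. It had 319 and 248 counts in the dd libraries and 509 and 505 in the ff libraries, or 13.5 and 8.19 CPM against 15.3 and 16.2 CPM. The log2 fold change was −0.54, or −0.22 without dd replicate 2. dd replicate 2, which had the most Igha, had the least Ighm.

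The IgG genes had few counts in the ff libraries. Ighg2c, the IgG2 gene of C57 mice beside Ighg2b, had 974 and 3755 counts in the dd libraries against 0 and 2 in the ff libraries. From pooled counts its ratio was 2826 (95% counting interval 781.8 to 23339), and the interval covers counting error only. Against the ff mean the ratio was 1284 with dd replicate 1 alone and 3861 with dd replicate 2 alone, and all ff counts were in replicate 2. Ighg1 had 408 and 2289 counts in the dd libraries against 15 and 5 in the ff libraries. Its log2 fold change was 7.21, or a 148.4-fold difference (56.5-fold with dd replicate 1 alone, 247.3-fold with dd replicate 2 alone). Ighg2b had 851 and 2944 counts in the dd libraries against 38 and 78 in the ff libraries. Its log2 fold change was 5.20, or 19.8-fold with dd replicate 1 alone and 53.3-fold with dd replicate 2 alone. Of the IgG genes, Ighg2b had the most counts in both ff libraries and Ighg2c in both dd libraries. Ighg3 was the rarest in dd, with 10 and 89 counts there against 1 in each ff library, a ratio of 59.2 (95% counting interval 15.9 to 495.2), or 13.6 with dd replicate 1 alone and 94.6 with dd replicate 2 alone.

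Summed over the 4 IgG genes, the level was 94.9 and 299.6 CPM in the dd libraries and 1.62 and 2.76 CPM in the ff libraries, a 90.0-fold ratio of means, which was 43.3 for dd replicate 1 alone and 136.7 for dd replicate 2 alone. The dd libraries differed from each other by 3.16-fold in this sum, against 2.31-fold in Igha. On the log2(FPKM + 0.5) scale the differences were smaller, at 4.56 for Ighg1, 6.70 for Ighg2c and 1.04 for Ighg3, since the added constant is large against their ff values.

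Among light chains, Igkc, the single kappa constant gene, followed Igha. It had 36325 and 107561 counts in the dd libraries and 5359 and 6751 in the ff libraries. The log2 fold change was 3.75, a 13.5-fold difference, or 8.14-fold with dd replicate 1 alone and 18.8-fold with dd replicate 2 alone. There were 0.881 and 0.879 Igkc counts per Igha count in the dd libraries and 0.783 and 0.672 in the ff libraries.

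The lambda genes were more uneven. Iglc1 had 436 and 1145 counts in the dd libraries and 91 and 542 in the ff libraries, so that the ff libraries differed by 6.37-fold in CPM. Leaving out ff replicate 2 raised its log2 fold change of 1.49 to 3.36, and leaving out ff replicate 1 lowered it to 0.70. Iglc2 had 364 and 2054 counts in the dd libraries and 35 and 109 in the ff libraries. Its log2 fold change was 4.20, or 6.77-fold with dd replicate 1 alone and 29.8-fold with dd replicate 2 alone. In Iglc3 the counts were 90 and 202 in the dd libraries and 20 and 32 in the ff libraries. Its log2 fold change was 2.69, or 4.68-fold with dd replicate 1 alone and 8.19-fold with dd replicate 2 alone. Although Iglc2 and Iglc3 have nearly the same sequence, dd replicate 2 exceeded dd replicate 1 by 4.40-fold in Iglc2 and by 1.75-fold in Iglc3.

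Levels of different genes were compared by the authors' FPKM, which is per length. Igkc was the highest in every library, at 2872 and 6701 FPKM in dd and 302.7 and 406.4 FPKM in ff, followed by Igha at 650.2 and 1520 FPKM in dd and 77.1 and 120.7 FPKM in ff. By FPKM, Igkc ranked 7 and 4 among all genes of the dd libraries and 107 and 85 in the ff libraries. Next in dd came Iglc2 (68.1 ± 61.0 FPKM), Ighg2c (62.4 ± 44.5) and Iglc1 (62.0 ± 30.5, SD, n = 2), which did not differ beyond their spread. In ff the third place was held by Ighm in replicate 1 (8.11 FPKM) and by Iglc1 in replicate 2 (38.2 FPKM). At the low end, Ighg3 had 0.167 and 1.17 FPKM in dd and 0.0120 and 0.0127 FPKM in ff.

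The lengths behind these FPKM were not uniform. From the deposited values they came to 2672 bases for Igha, 2570 for Ighg1, 2671 for Ighg2b, 2385 for Ighg3 and 1283 for Ighg2c, near the longest annotated transcript of each gene. The annotated transcripts without membrane exons, which give the secreted chain, have 1100 bases for Igha, 1114 for Ighg2b and 1111 for Ighg2c. Ighg2c therefore took 60.5% and 58.4% of IgG FPKM in the dd libraries but 43.4% and 41.4% of IgG counts, and 43.2% and 41.1% of counts per kb of those shorter transcripts. Light chains exceeded heavy chains by 4.16 and 4.10 in dd and 3.63 and 3.47 in ff by FPKM, and by 1.77 and 1.75 in dd and 1.57 and 1.49 in ff per kb of the shorter transcripts.

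**Figure D2:**
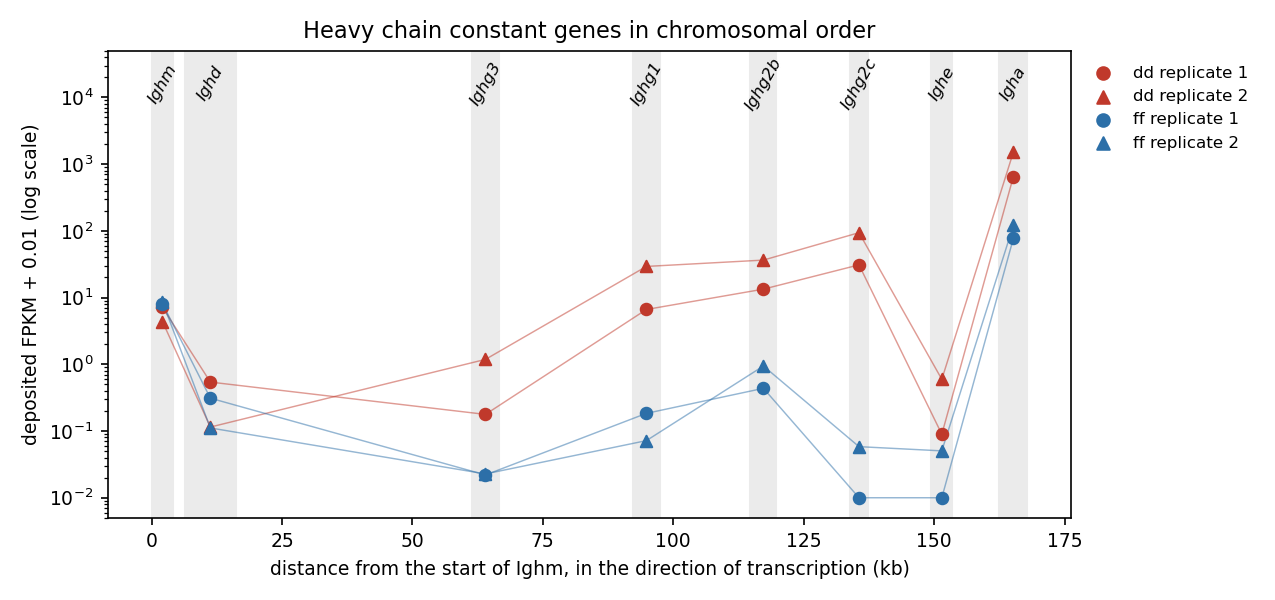
Deposited FPKM plus 0.01 (log axis) of the heavy chain constant genes, placed by distance in kb from the start of Ighm in the direction of transcription, with shaded bars for the genes, red for dd and blue for ff. The lines join the genes of 1 library; Ighm at the left end is close between genotypes, the IgG genes are far apart, and Igha at the right end is the highest in all 4 libraries.

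In the heavy chain make-up of each library, the share of Igha was close in both genotypes, with IgG second in dd and IgM second in ff. Igha took 94.2% and 92.9% of heavy chain constant counts in the dd libraries and 92.4% and 94.4% in the ff libraries. Ighm took 0.728% and 0.188% in the dd libraries (95% Wilson intervals 0.653 to 0.812% and 0.166 to 0.213%) and 6.87% and 4.74% in the ff libraries (6.32 to 7.47% and 4.36 to 5.17%). The 4 IgG genes took 5.12% and 6.89% in the dd libraries (4.92 to 5.33% and 6.76 to 7.03%) and 0.729% and 0.808% in the ff libraries (0.559 to 0.950% and 0.655 to 0.997%). These intervals cover counting error only. By counts per kb of the shorter transcripts, IgG took 5.11% and 6.88% in the dd libraries and 0.740% and 0.810% in the ff libraries.

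Within IgG the make-up also differed. Ighg2b took 37.9% and 32.4% of IgG counts in the dd libraries and 70.4% and 90.7% in the ff libraries, which had only 54 and 86 IgG counts. Ighg1 took 18.2% and 25.2% in the dd libraries and 27.8% and 5.81% in the ff libraries, where its Wilson intervals of 17.6 to 40.9% and 2.51 to 12.9% were wide. Ighg2c was at 0 of 54 IgG counts in ff replicate 1, which allows a share of up to 5.56%, and at 0 of its 7410 heavy chain counts, which allows up to 0.0405%.

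Kappa held 97.6% and 96.9% of light chain constant counts in the dd libraries and 97.3% and 90.8% in the ff libraries. ff replicate 2 stood apart with 9.19% lambda counts (Wilson interval 8.55 to 9.87%), against 2.65% in ff replicate 1 and 2.39% and 3.07% in the dd libraries. Iglc1 made up 79.4% of its lambda counts. Iglc2 took 40.9% and 60.4% of lambda counts in the dd libraries and 24.0% and 16.0% in the ff libraries.

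**Figure D3:**
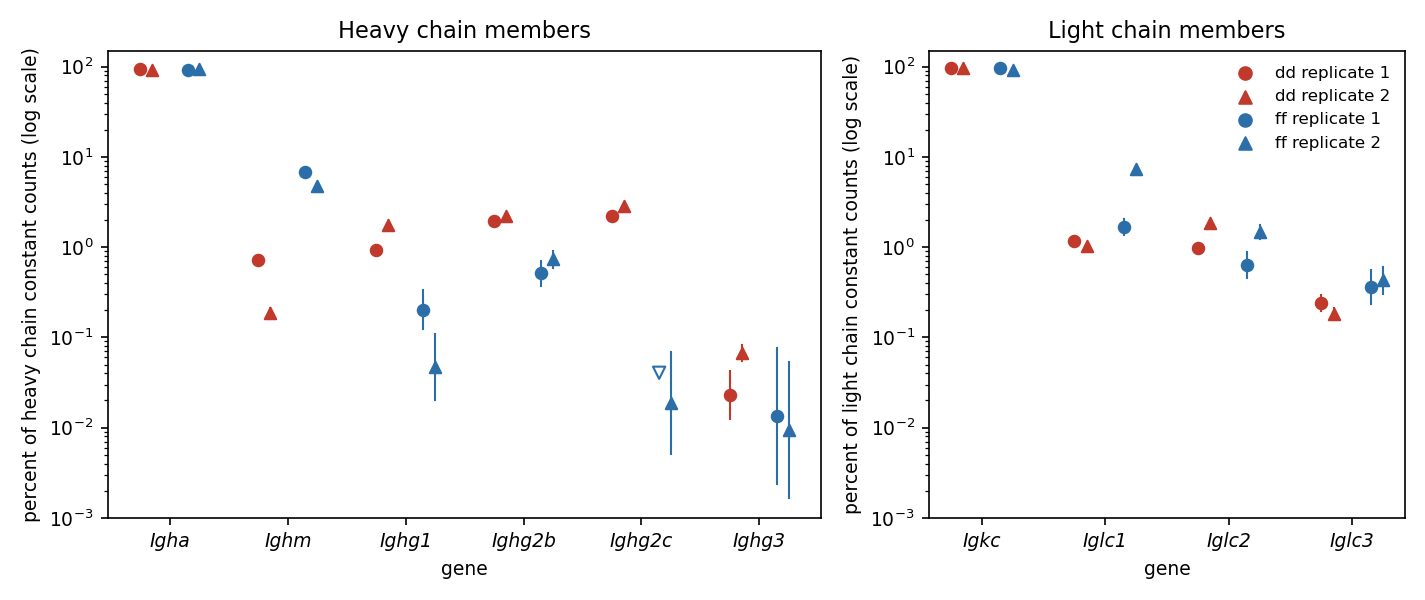
Share of each heavy chain gene in all heavy chain constant counts (left) and of each light chain gene in all light chain constant counts (right), in percent on a log axis, with 95% Wilson intervals as bars, red for dd and blue for ff. The open triangle is the upper limit for a count of 0; Igha and Igkc are near the top in all libraries, Ighm is higher in ff, and the IgG genes are higher in dd.

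The other heavy chain constant genes were low throughout. Ighd, the IgD gene beside Ighm, had 24 and 6 counts in the dd libraries and 19 and 6 in the ff libraries (log2 0.59, adjusted p = 0.703). Ighe, the IgE gene, had 3 and 28 counts in the dd libraries and 0 and 2 in the ff libraries, a ratio of 18.5 (95% counting interval 4.71 to 159.7), and was too low for the test. Iglc4 had no count in any library.

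Plasma cell genes moved in both directions. Of 21 tested genes on the list, 4 rose and 2 fell in dd, against 4.52% of all tested genes called higher and 3.86% called lower (838 and 716 genes, or 751 and 1020 with library size alone as the scaling; edgeR's quasi-likelihood test, adjusted p under 0.05), and their median log2 fold change was 0.32, against 0.0022 over all tested genes. Jchain, which joins IgA and IgM units, had 10384 and 27100 counts in the dd libraries and 1154 and 1821 in the ff libraries (log2 3.84, SE 0.46, adjusted p = 0.0246). Derl3, an endoplasmic reticulum degradation protein abundant in secretory cells, rose by 2.91 on the log2 scale, at 13.2 ± 5.54 CPM in dd and 1.75 ± 0.203 CPM in ff. Pou2af1, a B lineage transcriptional coactivator, rose by 2.73, and Irf4, a transcription factor needed for plasma cells, by 1.49. The fallers were Cd38 (log2 −1.42), an ectoenzyme made by many cell types, and Tent5c (−0.82), a poly(A) polymerase.

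Some defining plasma cell genes did not pass. Mzb1, a chaperone of antibody assembly, was at 3.46 ± 0.287 CPM in dd and 1.48 ± 0.0913 CPM in ff (adjusted p = 0.0502), and Tnfrsf17, the survival receptor BCMA, had 16 and 43 counts in dd and 2 and 8 in ff (adjusted p = 0.085). Xbp1, Sdc1 and Prdm1, which are also expressed in epithelium, had log2 fold changes of −0.25, −0.01 and −0.82 and adjusted p-values of 0.605, 0.986 and 0.176. None of the 24 genes for folding and secretion in the endoplasmic reticulum was called by edgeR or by DESeq2. Over all tested genes edgeR called 4.52% higher and 3.86% lower. At edgeR's unadjusted p under 0.05, 1 of the 24 genes was higher. The median log2 fold change of the 24 was 0.12, against 0.0022 over all tested genes, and 21 of them were above 0. The log2 fold change of Jchain was 3.51 without ff replicate 1 and 3.24 without dd replicate 2. That of Irf4 ran between 1.32 and 1.65 in the fits without 1 library, and its call was lost in each. Such fits have 1 library in a group and made fewer calls over all genes. Calls lost in them cannot be read as a trait of a list.

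Set against plasma cell genes, the constant region counts gave differing pictures. For each Jchain count there were 7.80 and 8.95 constant region counts in the dd libraries and 11.2 and 9.93 in the ff libraries. For each Pou2af1 count there were 736.5 and 1060 in the dd libraries and 587.0 and 488.6 in the ff libraries. Per Mzb1 count the values were 1052 and 2186 in the dd libraries and 274.8 and 376.6 in the ff libraries. Per Irf4 count they were 810.2 and 1517 in the dd libraries and 234.8 and 334.8 in the ff libraries, and per Derl3 count 370.0 and 468.5 in the dd libraries and 205 and 361.5 in the ff libraries. Per Tnfrsf17 count the ff libraries spanned the dd ones, at 5064 and 5643 in dd and 6458 and 2260 in ff. The Jchain ratio was lower in both dd libraries, and those to Pou2af1, Mzb1, Irf4 and Derl3 were higher in both.

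Genes of the B cell list differed widely in counts, and 14 of 20 were high enough to be tested. Among the lowest, Ms4a1 (CD20) had 4 and 2 counts in the dd libraries and 6 and 3 in the ff libraries, and Pax5 had 2 and 0 in dd and 3 and 2 in ff. The whole list of 20 summed to 50.6 and 62.5 CPM in the dd libraries and 86.5 and 98.7 CPM in the ff libraries. Ebf1 alone made up 26.4 and 30.5 CPM of this sum in dd and 62.3 and 75.6 CPM in ff, so the sum mostly follows that gene. Of those 14, 2 rose and 1 fell (median −0.53), against 4.52% and 3.86% of all tested genes. Cd79a and Cd79b, the signalling chains of the B cell receptor, rose by 3.07 and 1.97 on the log2 scale, and Ebf1, which stromal cells also express, fell by 1.28. Cd79b lost its call without any 1 library (adjusted p between 0.0597 and 0.177), Cd79a passed only without dd replicate 1 (adjusted p = 0.0209), and Ebf1 passed without ff replicate 2 (0.0307) and without dd replicate 2 (0.0496).

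Of 16 tested class switch and germinal centre genes 0 were called by edgeR with the filter on low counts. The shares over all tested genes were 4.52% called higher and 3.86% called lower. At edgeR's unadjusted p under 0.05, 1 gene of the list was higher and 4 were lower (median −0.29). Without the filter edgeR called 3 lower, and DESeq2 called 3 lower. Over all genes these called 1363 and 1344 lower, against 716 in the main fit.

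Among genes that attract plasma cells or carry antibody, Ccl28, an epithelial chemokine for IgA plasma cells, rose. It had 878 and 888 counts in the dd libraries and 108 and 163 in the ff libraries (log2 2.97, SE 0.28, adjusted p = 0.0186), and it passed without any 1 library (adjusted p up to 0.0483). Its receptor gene Ccr10 had 26 and 53 counts in dd and 52 and 47 in ff (log2 −0.10, adjusted p = 0.869). Pigr, the epithelial carrier of polymeric IgA, was at 66.4 ± 10.8 CPM in dd and 46.1 ± 1.22 CPM in ff (log2 0.53, adjusted p = 0.0808). Cxcl12, a chemokine for plasma cells made by stroma, fell by 0.55, and Vcam1, an adhesion molecule for lymphocytes, fell by 0.91. The calls of both were lost without any 1 library (adjusted p up to 0.132 for Cxcl12 and up to 0.146 for Vcam1) and with the replicate number as a block (0.0507 and 0.0511). Of 13 tested genes on this list 1 rose and 2 fell, with a median of −0.12, against 4.52% and 3.86% of all tested genes.

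Fc receptors, which bind the constant regions, fell in dd where they changed. Of 8 tested genes 5 fell and 0 rose (median −1.34), against 3.86% of all tested genes called lower and 4.52% called higher. Fcer1g, the shared gamma chain, fell by 1.53 on the log2 scale, at 19.2 ± 1.28 CPM in dd and 55.3 ± 1.68 CPM in ff (adjusted p = 0.0147). The IgG receptor genes Fcgr4, Fcgr1, Fcgr2b and Fcgr3 fell by 2.81, 1.38, 1.30 and 0.99. Fcgrt, the neonatal Fc receptor that spares IgG from breakdown, had 68.9 and 61.2 CPM in dd and 81.8 and 79.4 CPM in ff (adjusted p = 0.114). Fcmr, the IgM receptor, had a log2 difference of −1.59 (adjusted p = 0.112). In the fits without 1 library the log2 fold change of Fcer1g ran between −1.59 and −1.46. Fewer Fc receptor genes were called in each of these fits, as were fewer genes over all. Macrophage markers were lower in the same libraries, with 6 of 10 called lower, a median of −0.88 and a summed level of 304.1 and 299.6 CPM in dd against 501.4 and 574.7 CPM in ff, and their part in the Fc receptor values was not tested.

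**Figure D4:**
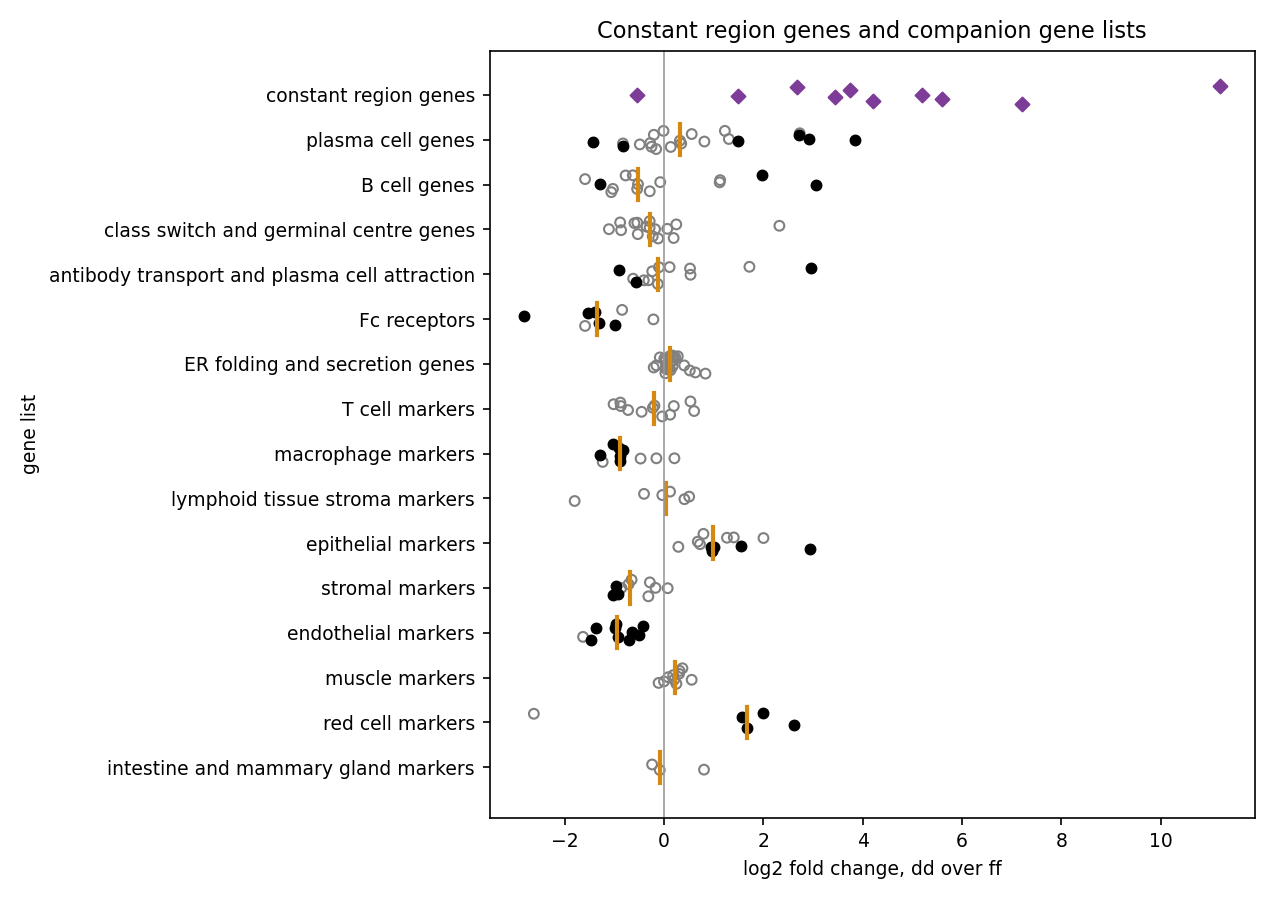
Log2 fold change of dd over ff for the 10 constant region genes (purple diamonds, no test) and for the tested members of each companion list, filled where edgeR's adjusted p is under 0.05 and open otherwise, with the list's median as an orange bar. The rightmost diamond is Ighg2c, whose fitted value depends on the 2 counts in ff; Jchain is the rightmost plasma cell gene at 3.84 and all Fc receptor values lie below 0.

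Markers of other cells moved with the genotype as well. For comparison, edgeR called 4.52% of all tested genes higher and 3.86% (716 genes) lower. DESeq2 called 1344 genes lower, and edgeR without the filter 1363. Epithelial markers were higher, with 5 of 12 called and a median of 0.99, among them Krt18 (0.97) and Krt8 (1.55), and their summed level was 2881 and 3380 CPM in dd against 1226 and 1486 CPM in ff. Red cell genes were higher, with 4 of 5 tested called and a median of 1.68, Hba-a1, which has a near-identical copy, rising by 2.62 and the sum being 237.6 and 305.9 CPM in dd against 69.3 and 68.1 CPM in ff. Stromal markers had 3 of 10 called lower (median −0.68, Pdgfra −0.97) and endothelial markers 9 of 10 (median −0.94, Tek −1.47). In the fits without 1 library the log2 fold change of Krt8 ran between 1.39 and 1.70 and that of Hba-a1 between 2.41 and 2.82. That of Pdgfra ran between −1.04 and −0.90 and that of Tek between −1.53 and −1.40. Calls in the lists together were fewer in each of these fits, and so were calls over all genes. Stromal calls remained only without ff replicate 2. With the filter on low counts, edgeR made no call among 12 T cell markers (3 lower at an unadjusted p under 0.05; DESeq2 called 1 lower), among 6 tested markers of lymphoid tissue stroma (2 lower at an unadjusted p under 0.05; DESeq2 called 2 lower, and edgeR 1 lower without the filter and 1 lower with the replicate number as a block), or among 10 muscle markers (0 at an unadjusted p under 0.05, 0 with DESeq2). Of the lymphoid and lymphatic stroma markers, Ccl21a, a chemokine of lymph node stroma and lymphatic vessels, had 4121 and 2838 counts in the dd libraries and 2937 and 3517 in the ff libraries (adjusted p = 0.436). Cxcl13, a chemokine of B cell follicles, had 20 and 0 counts in the dd libraries and 16 and 10 in the ff libraries. The whole list summed to 374.4 and 252.7 CPM in dd and 312.6 and 316.7 CPM in ff. Of 9 intestine and mammary gland markers, Cdx2 had no count in dd and 0 and 2 in ff, the casein genes Csn2 and Csn1s1 had none, and none of 3 tested was called by either tool. The part of any of these cell types in the constant region values was not tested.

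The genes with the course over the 4 libraries most like that of the summed constant regions were found among 12372 genes with a mean of at least 5 CPM, leaving out immunoglobulin segments. Likeness was the root mean square difference of log2(CPM + 0.5) after removing each gene's mean. Jchain came first (0.18), followed by Rab11fip4 (0.21), a partner of Rab11 in vesicle traffic, and Egfl6 (0.26), a secreted EGF-like protein. After them came AC158975.2 (0.31), 2310007B03Rik (0.32), Slpi (0.32), a secreted protease inhibitor of epithelia, Pla2g5 (0.32), a secreted phospholipase, and Ptpn22 (0.37), a phosphatase of lymphocyte signalling. dd replicate 2 exceeded dd replicate 1 by 2.04-fold in Jchain, 1.79-fold in Rab11fip4 and 1.37-fold in Slpi, against 2.34-fold in the summed constant regions. These genes were chosen for their likeness, and their differences between genotypes are not tested here.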

How the data were processed

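RNA of whole uteri was sequenced in 2 dd and 2 ff libraries. STAR, edgeR and mm10 are named, without versions, per the submitters' processing notes; counter, annotation, strand and read length are not stated in the labels. The table the authors deposited holds whole-number counts, rescaled counts (a signal column, used only for the lengths behind FPKM), FPKM per the file headers (the series text says RPKM), and a fold ratio and p-value (both not used here).

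Counts were fitted over all genes with edgeR 4.0.16 (R 4.3.3; TMM, filterByExpr, glmQLFit and glmQLFTest, Benjamini-Hochberg adjustment, calls under 0.05), and CPM uses TMM-scaled totals. The SE given for a tested gene is the size of its log2 fold change divided by the square root of edgeR's F statistic. DESeq2 1.42.0 and limma 3.58.1 (log2(FPKM + 0.5)) were alternatives. Shares have 95% Wilson intervals, and ratios over a group with 1 to 3 counts have exact binomial counting intervals. A count of 0 was given an upper limit of 3 counts. Positions, transcripts and gene types come from GENCODE release 21 of the mouse (mm10), coding limits from RefSeq (GRCm38.p6), and all 54152 symbols matched. PCR duplicates are not known, so intervals cover counting error only. Whether replicate numbers pair the libraries is not known, and the main fit did not pair them.

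The members and lists were chosen with earlier results of these data known. Named by rule were all members, 20 set companion genes (some not reported here), up to 5 called genes per list and the 8 genes nearest in course; Pax5, Ccl21a, Cxcl13, Cdx2, Csn2, Csn1s1, Iglc4 and the lambda variable segments, outside the rule, were chosen after their values were seen. No file or label gives a batch.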

Additional observations from a re-analysis of the deposited data

How the results depend on the processing

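The log2 ratio of the summed level of the 10 members, 3.56, ran between 3.48 and 3.64 under other scalings and by FPKM and was 3.47 with the replicate block. Leaving out 1 library gave between 2.83 and 4.06. No sign of a member changed in the alternatives run, but Ighg3 had no value in the fit without dd replicate 2. The members were chosen from these same counts. In all 10 the groups do not overlap, which fixes the sign when a library is left out. The mean Igha share of heavy chain counts, 93.5% in dd and 93.4% in ff, was 91.0% and 91.2% by FPKM, and in ff 94.9% by counts per kb of the shorter transcripts, a choice added after seeing the data. Over all genes 1554 were called (838 higher, 716 lower), 1771 with library size alone (751 and 1020) and 1578 under upper quartile scaling (748 and 830), 2947 without a filter and 2864 with DESeq2. Leaving out 1 library gave between 90 (without ff replicate 1) and 1198 calls over all genes, between 3 and 32 in the lists (44 with all libraries), between 0 and 4 against 6 for plasma cell genes, between 0 and 1 against 3 for B cell genes, between 1 and 2 against 3 for antibody transport and attraction and between 0 and 3 against 5 for Fc receptors. The attraction list, with 1 higher and 2 lower, had 2 higher and 0 lower without dd replicate 1, 5 calls without a filter, 5 with DESeq2, and 1 with the replicate block. The block gave 1531 calls over all genes. Nothing in the labels says that a replicate number marks a shared animal or day, and deviations of same-numbered libraries correlated at 0.013. The cause of these changes was not tested, but fits without 1 library have 1 library in a group, taken to vary like the other group. Of the 44 called list genes, 3 (Ccl28, Tek and Hba-a1) passed whichever library was left out.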

Other observations

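The lambda variable segments are few in the mouse, and 3 were listed. Iglv1 had 321 and 726 counts in the dd libraries and 59 and 324 in the ff libraries. Iglv2 had 10 and 326 counts in the dd libraries and 3 and 24 in the ff libraries, so most of its dd counts came from replicate 2. Iglv3 had 48 and 288 counts in the dd libraries and 4 and 10 in the ff libraries. There were 0.426 and 0.394 lambda variable counts per lambda constant count in the dd libraries and 0.452 and 0.524 in the ff libraries. The matching ratios were 0.283 and 0.301 for kappa in dd and 0.324 and 0.352 in ff, and 0.129 and 0.152 for heavy chains in dd and 0.173 and 0.196 in ff.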
